A study of Mus musculus with 6 samples.

Results

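The CCN genes Ccn1 to Ccn5 and the genes Ankrd1 and Amotl2, the last 2 widely used as readouts of the transcriptional coactivator YAP, were followed in primary mouse osteoblast cultures. Their rows were taken by gene symbol from the table of 31401 genes, and all 7 were found and passed the filter on low counts. They were picked with the difference between ZM and control cultures already known, so their values are given as a description and without a p-value. The cells came from the calvaria, the flat skull bones, of WT C57BL/6 mice 3 days old, and all cultures spent 6 days in osteogenic induction medium. In the 3 ZM samples the medium held 10 μM ZM (ZM-306416, known as an inhibitor of the VEGF and EGF receptors), and in the 3 control samples it held none. All samples carry the same batch label. No label says whether samples of a group are separate cultures or how many animals were pooled, so every p-value here rests on the spread among these samples alone, and that spread may be technical.

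CCN proteins are secreted into the matrix, where they bind integrins, proteoglycans and growth factors and so tune how bone cells adhere, divide and differentiate. YAP and its relative TAZ carry mechanical and growth signals to the nucleus. There they act through the DNA-binding TEAD factors, and the Hippo kinases hold them back in the cytoplasm. Ccn1, Ccn2, Ankrd1 and Amotl2 are classic genes of this output, while Ccn4 and Ccn5 are also known as Wnt-induced genes and Ccn3 as a factor that opposes Ccn2 in several cell types.

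Because TEAD factors bind the core sequence GGAATG, the promoters at hand were searched for it on both strands, in the 250 bases before the transcription start. RefSeq's promoter table (GRCm38.p6) held 3 of the 7 genes, Ccn1, Ankrd1 and Amotl2. The Ccn1 promoter, at chr3:145649986-145650235 on the minus strand, is shown whole, with the match in capitals (reading CATTCC, the core on the other strand) 103 to 98 bases before the start.
Ccn1: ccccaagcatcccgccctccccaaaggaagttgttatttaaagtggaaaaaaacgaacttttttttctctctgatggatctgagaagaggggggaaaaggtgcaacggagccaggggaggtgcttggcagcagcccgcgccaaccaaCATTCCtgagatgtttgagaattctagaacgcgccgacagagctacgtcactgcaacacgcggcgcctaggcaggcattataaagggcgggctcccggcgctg

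The other matches are shown with 12 bases on either side, since parts of these windows are annotated as exons in GENCODE. Exons of 6 annotated Ankrd1 transcripts and of 2 Amotl2 transcripts reach into the windows. Both windows lie within the span of the GENCODE gene, so they precede RefSeq's start but not the outermost GENCODE start. Each Ankrd1 stretch shown itself overlaps exons of 1 of 6 annotated transcripts, and the Amotl2 stretch those of 2 of 14. Ankrd1 held the core at 2 places, 210 to 205 and 123 to 118 bases before its start (chr19:36120037-36120066 and chr19:36119950-36119979, minus strand). In Amotl2 it lay 65 to 60 bases before the start (chr9:102717727-102717756, plus strand), again as CATTCC.
Ankrd1, far match: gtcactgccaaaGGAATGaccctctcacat
Ankrd1, near match: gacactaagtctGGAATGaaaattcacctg
Amotl2: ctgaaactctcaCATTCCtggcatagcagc

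All 3 promoters thus held the core, which is present in 12.6% of the 32851 RefSeq promoter windows of the same length. None of the 3 held an AP-1 site (TGANTCA, in 6.75% of windows) or a CArG box, the element bound by SRF (in 1.47%). Such matches are letters in a window and say nothing of binding.

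Library totals were 44714005 to 57020669 counts in ZM samples and 42721326 to 69867931 in control samples. The osteoblast collagen gene Col1a1 was among the high transcripts, at 1364 FPKM with ZM and 1326 FPKM in control (FPKM scales counts to library total and gene length, so levels of different genes can be set side by side). Osteocalcin (Bglap) and bone sialoprotein (Ibsp) were near 0, at 0.103 and 0.116 FPKM with ZM and 0.189 and 0.0671 FPKM in control. Of 6 tested osteoblast markers 3 rose and 0 fell by edgeR, by which 22.8% of all tested genes rose and 22.4% fell. The risen ones were the alkaline phosphatase gene Alpl (7.82 FPKM with ZM and 0.630 FPKM in control), Runx2 (4.67 FPKM with ZM and 3.68 FPKM in control) and Sp7 (0.744 FPKM with ZM and 0.396 FPKM in control). The cultures also held macrophage transcripts. The summed level of 7 macrophage markers was 6776 to 7532 FPKM in ZM samples and 12605 to 13004.5 FPKM in control samples. By edgeR 7 of 7 were lower, beside 22.4% of all tested genes. Most of that sum was Lyz2 (6720 FPKM with ZM and 12233 FPKM in control), and the other 6 summed to 463 to 492 FPKM in ZM samples and 623 to 642 FPKM in control samples. The sum of 6 osteoclast markers was 511 to 529 FPKM in ZM samples and 280.3 to 299.9 FPKM in control samples. Here 6 of 6 were higher, beside 22.8% of all tested genes. Without Ctsk, the most abundant, the other 5 summed to 122 to 132 FPKM in ZM samples and 11.2 to 13.1 FPKM in control samples. Markers of striated muscle, in which Ankrd1 is known to be abundant, summed to 0.439 to 0.522 FPKM in ZM samples and 0.708 to 0.749 FPKM in control samples, with Myod1 not analysed here. In these bulk libraries fewer cells of a type and less RNA per cell cannot be told apart, and the part of these cell types in the values below was not tested.

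By edgeR's quasi-likelihood test 45.3% of the 17533 tested genes differed between ZM and control, 22.8% higher and 22.4% lower, and in 54.2% the groups did not overlap. All 7 genes were past this threshold, 4 higher (Ccn1, Ccn3, Ccn5 and Amotl2) and 3 lower (Ccn2, Ccn4 and Ankrd1), and in all 7 the groups did not overlap. As the genes were picked on this contrast, nothing is read from these counts.

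**Figure D1:**
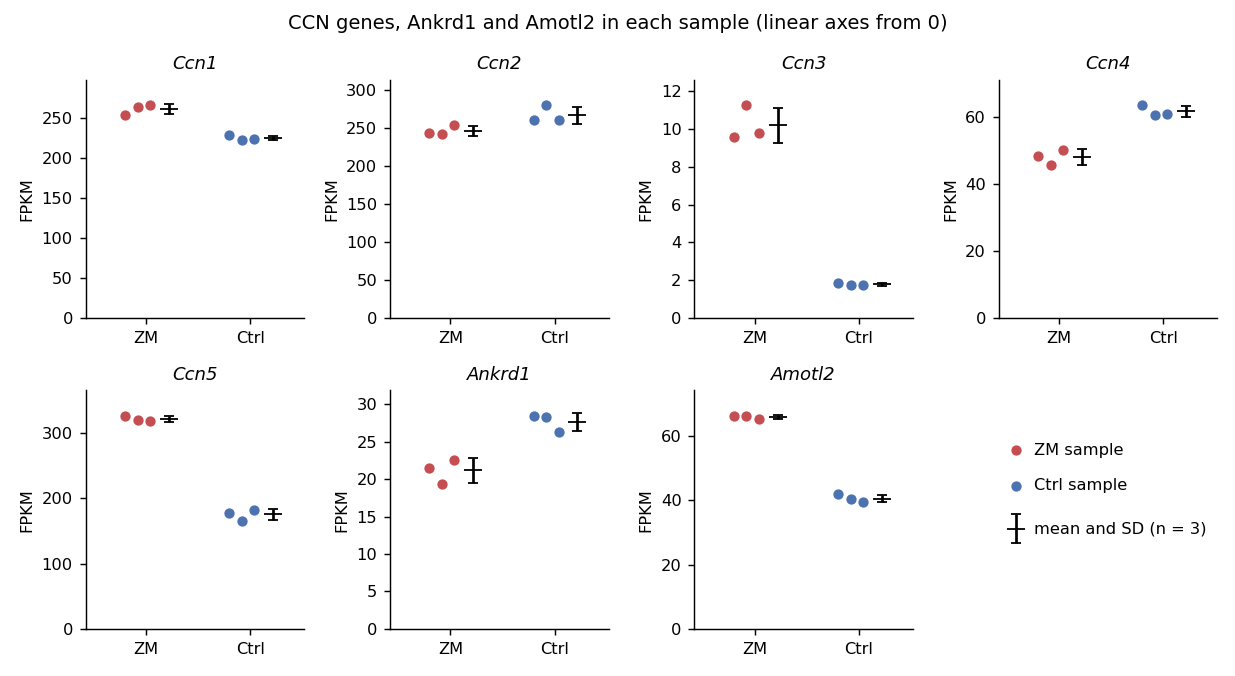
FPKM (vertical axes, linear and starting at 0) of the 7 genes in each of 3 ZM samples (red, left) and 3 control samples (blue, right), with the mean and SD beside the points. Ccn3, Ccn5, Amotl2 and, by a narrow gap, Ccn1 sit higher in ZM samples, and Ccn4, Ankrd1 and, by a narrow gap, Ccn2 sit lower.

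The secreted CCN proteins come first. Ccn1 (Cyr61), an integrin ligand that is quickly induced by growth factors and stretch, was at 253, 264 and 265 FPKM in ZM samples 1 to 3 and at 228, 223 and 223 FPKM in control samples 1 to 3. Each ZM sample was above each control sample by a small margin. The TMM-scaled log2 fold change of ZM over control was 0.16 ± 0.03 (SE), or 1.11-fold. The gene lies at chr3:145646976-145649981 on the minus strand and has 5 exons and 1 annotated transcript.

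Ccn2 (Ctgf), the connective tissue growth factor, which TGF-beta also induces, leaned the other way. Its levels were 243, 243 and 254 FPKM in ZM samples and 260.4, 280.2 and 261 FPKM in control samples. The lowest control samples stood only just above the highest ZM sample, and control sample 2 was the highest of all. The log2 fold change was -0.18 ± 0.04 (SE), or 1.13-fold lower, and it was smaller, at -0.12, with scaling by library size alone and at -0.11 on log2(FPKM + 1). So Ccn1 and Ccn2, often read together as YAP readouts, differed in opposite directions, each by a small step.

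Ccn2 lies at chr10:24595442-24598683 on the plus strand, and 23.2% of its exon bases overlap Gm15270, an annotated gene on the opposite strand. With no strand setting stated, reads there cannot be assigned, so the level of Ccn2 is uncertain. Gm15270 itself had 12, 7 and 7 counts in ZM samples and 12, 13 and 13 in control samples, against at least 31049 counts of Ccn2 in each library.

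Ccn3 (Nov), known in osteoblast cultures as an inhibitor of BMP-driven differentiation, had the largest difference of the 7. It was at 9.54, 11.2 and 9.76 FPKM in ZM samples and at 1.86, 1.76 and 1.73 FPKM in control samples. The lowest ZM sample was thus far above the highest control sample, and the control samples lay close together. The counts behind these levels were 1561, 1442 and 1365 with ZM and 228, 353 and 309 in control. The log2 fold change was 2.45 ± 0.08 (SE), or 5.48-fold. By mean FPKM Ccn3 stood at rank 4534 of all listed genes in ZM samples and at rank 10538 in control samples. Among all tested genes 66 had a larger rise, and 11 of those reached 5 FPKM in the higher group. Ccn3 lies at chr15:54745702-54754039 on the plus strand.

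Ccn4 (Wisp1), a Wnt-induced member made by bone-forming cells, was lower. It measured 48.4, 45.5 and 50.03 FPKM in ZM samples and 63.4, 60.5 and 60.9 FPKM in control samples, with a clear gap between the groups. The log2 fold change was -0.42 ± 0.04 (SE), or 1.34-fold lower. It sits on the same chromosome as Ccn3, at chr15:66891320-66923201 on the plus strand, and the 2 genes differed in opposite directions.

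Ccn5 (Wisp2), the member that lacks the C-terminal module of the family and is known in smooth muscle cells as a growth-arrest gene, was higher. Its levels were 326, 319.7 and 318 FPKM in ZM samples and 178, 165 and 182 FPKM in control samples. No control sample came near the ZM samples, which lay within a narrow band. The log2 fold change was 0.82 ± 0.04 (SE), or 1.76-fold. By mean FPKM it stood at rank 80 of all listed genes in ZM samples, against rank 180 in control samples. The gene lies at chr2:163820861-163833146 on the plus strand.

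The coding sequence of Ccn5 is 753 bases long in GENCODE, against 1044 (Ccn2) to 1137 (Ccn1) for the other 4. Over aligned coding bases the 5 genes were 61.7% (Ccn3 and Ccn4) to 67.5% (Ccn4 and Ccn5) identical. No transcript of another gene matched any of the 7 at 97% identity over 100 bases except Gm15270, where it overlaps Ccn2. Ccn6, the remaining family member, had 4, 6 and 0 counts in ZM samples and 4, 3 and 6 in control samples and stayed below the filter. A count of 0 allows up to 0.0615 CPM in that ZM library, which covers counting error only.

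The make-up of the CCN transcripts differed with ZM. Ccn5 formed 36.2% ± 0.791 of the summed FPKM of Ccn1 to Ccn5 in ZM samples and 24.0% ± 1.201 in control samples (SD, n = 3 each). Ccn2 formed 27.8% ± 0.453 in ZM samples and 36.6% ± 1.54 in control samples. With the deposited gene lengths Ccn5 held the largest share with ZM, and Ccn2 in control. With the Ccn2 length taken without the bases shared with Gm15270, Ccn2 and Ccn5 were level with ZM, at 33.4% each, and Ccn2 was at 42.9% and Ccn5 at 21.6% in control. Ccn4 formed 5.41% ± 0.226 with ZM and 8.44% ± 0.206 in control, and Ccn3 formed 1.15% ± 0.108 with ZM and 0.244% ± 0.00883 in control. Ccn1 formed 29.4% ± 0.568 in ZM samples and 30.8% ± 0.344 in control samples, a difference that turns direction, to 0.698 percentage points higher with ZM, when CPM replaces FPKM. The sum over the 5 genes was 887 ± 8.99 FPKM in ZM samples and 730.2 ± 1.22 FPKM in control samples. FPKM is scaled by library total alone, which sets log2 fold changes of ZM over control 0.06 higher than TMM scaling does. The sum also depends on the length taken for Ccn2.

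**Figure D2:**
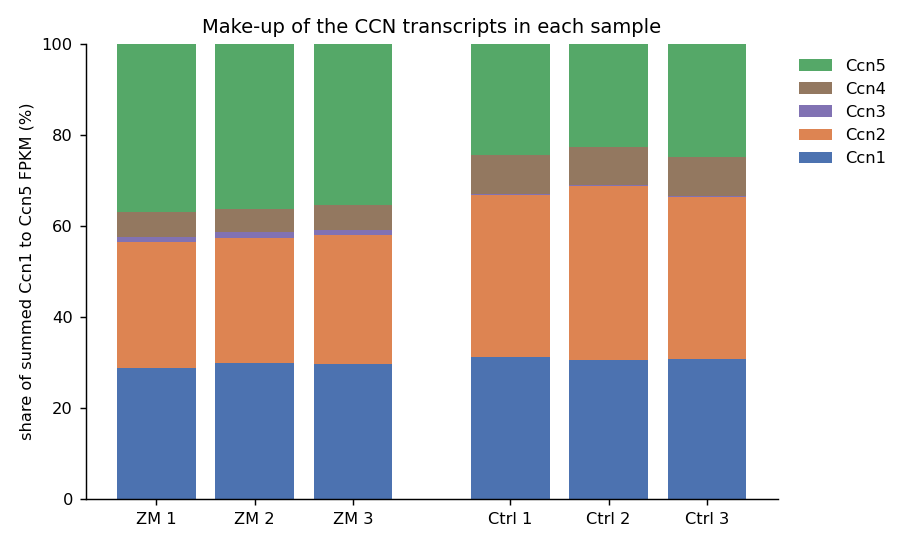
Share of each CCN gene (vertical axis, percent of the summed FPKM of Ccn1 to Ccn5) in 3 ZM samples (left) and 3 control samples (right), stacked to 100%. The Ccn5 share is 35.4% to 37.0% in ZM samples and 22.6% to 25.0% in control samples, and the Ccn3 band is barely visible in control.

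Order by level followed from this. In ZM samples Ccn5 came first, then Ccn1, Ccn2, Amotl2, Ccn4, Ankrd1 and Ccn3. Control samples had Ccn2 first, then Ccn1, Ccn5, Ccn4, Amotl2, Ankrd1 and Ccn3. Each neighbouring pair was separate in its ranges except Ccn1 and Ccn2 in ZM samples. Within each ZM library Ccn1 was nevertheless above Ccn2, at 104%, 109% and 104% of its FPKM, and within each control library it was below, at 87.4%, 79.4% and 85.6%. Ccn3 amounted to 4.13% ± 0.435 of Ccn2 with ZM and 0.669% ± 0.0432 in control.

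The place of Ccn2 in this order depended on its length. If no read of the bases shared with Gm15270 was counted, its level becomes 321 ± 8.41 FPKM in ZM samples and 348 ± 14.7 FPKM in control samples. It then stands above Ccn1 in both groups and level with Ccn5 in ZM samples. Its difference between the groups does not depend on the length.

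The intracellular genes of the YAP readout also moved in opposite directions. Ankrd1, a cofactor in the nucleus and a titin-binding protein of muscle that responds to stretch, was at 21.5, 19.4 and 22.6 FPKM in ZM samples and at 28.4, 28.3 and 26.3 FPKM in control samples. Every ZM sample was below every control sample. The log2 fold change was -0.45 ± 0.05 (SE), or 1.36-fold lower. Its locus is chr19:36111961-36120099 on the minus strand.

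Amotl2, an angiomotin-like scaffold at cell junctions that binds YAP and restrains it, was at 66.1, 66.0 and 65.1 FPKM in ZM samples. In control samples it was at 41.8, 40.3 and 39.4 FPKM, so the groups were far apart relative to the spread within them. The log2 fold change was 0.64 ± 0.03 (SE), or 1.56-fold. Amotl2 lies at chr9:102716672-102733418 on the plus strand. The Ankrd1 level was 32.2% ± 2.68 of the Amotl2 level with ZM and 68.4% ± 1.72 in control.

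Spread between samples was small for all 7. The coefficient of variation of TMM-scaled CPM was 0.938% (Amotl2) to 9.38% (Ccn3) in ZM samples and 0.949% (Ccn1) to 4.95% (Ccn2) in control samples. ZM sample 2 had the highest Ccn3 and the lowest Ccn4 and Ankrd1 of its group.

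Amot, a relative of Amotl2 that encodes angiomotin itself, rose to 21.1 ± 1.13 FPKM with ZM, against 14.5 ± 1.21 FPKM in control (log2 fold change 0.48 ± 0.06, SE; adjusted p = 3.4e-05, edgeR), 1 of 4 tested relatives of the 7 genes to pass, beside 45.3% of all genes. Amotl1 (0.02 ± 0.04) did not pass, and neither did the Ankrd1 relatives Ankrd2 (0.273 FPKM with ZM and 0.330 FPKM in control) and Ankrd23 (0.174 FPKM with ZM and 0.197 FPKM in control).

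Upstream of the readouts, the YAP and TEAD genes were mostly higher. Of 8 tested genes for YAP, TAZ, TEAD and VGLL factors 7 rose and 1 fell, which is 100% called beside 45.3% of all genes. Their median log2 fold change was 0.42, beside -0.00095 for all tested genes. This list, like the other lists here, was chosen with earlier results of these data known. Its counts, median and p-values describe these data and are not independent evidence. Yap1 was at 17.2 ± 0.0906 FPKM with ZM and 12.7 ± 0.192 FPKM in control (log2 fold change 0.38 ± 0.03; adjusted p = 7.58e-08). Tead1, a main TEAD factor of mesenchymal cells, was at 25.0 ± 1.195 FPKM with ZM and 17.9 ± 0.282 FPKM in control (0.42 ± 0.04), and Tead3 rose by 0.51 ± 0.06. Vgll3 and Vgll4, whose proteins bind TEAD in place of YAP, rose by 0.59 ± 0.04 and 0.42 ± 0.05, and Vgll3 was the highest of the list at 69.6 ± 1.82 FPKM with ZM and 44.6 ± 2.41 FPKM in control.

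Wwtr1, which encodes TAZ, differed little, at 26.2 ± 0.655 FPKM with ZM and 26.7 ± 0.0292 FPKM in control (log2 fold change -0.09 ± 0.03; adjusted p = 0.0454). Its call ended in 11 of 14 alternatives, among them scaling by library size alone (adjusted p = 0.517) and leaving out any sample other than ZM sample 3 (adjusted p = 0.0559 to 0.18), with 0.0263 to 0.517 over all 14. Scaling by library size alone gave 7 higher and 0 lower.

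Hippo kinases and their regulators went both ways. Of 21 tested genes 9 rose, 4 fell and 8 did not pass (61.9% called, beside 45.3% of all genes), with a median of 0.12. Scaling by library size alone gave 12 higher and 1 lower. The kinase genes Stk4 (log2 fold change -0.25 ± 0.04; adjusted p = 3.22e-05) and Stk3 (-0.15 ± 0.05; adjusted p = 0.0238) fell, and their scaffold Sav1 rose (0.33 ± 0.05; adjusted p = 4.59e-05). The atypical cadherin Fat4 (0.88 ± 0.06) and the YAP-binding phosphatase Ptpn14 (0.57 ± 0.04) had the largest rises. Lats1 and Lats2, the kinases that phosphorylate YAP, differed by 0.09 ± 0.04 (adjusted p = 0.121) and 0.12 ± 0.04 (adjusted p = 0.0207).

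Some of these calls ended with fewer samples or another scaling. That of Stk3 ended without control sample 2 (adjusted p = 0.13), without ZM sample 3 (adjusted p = 0.122) and when only library size was used for scaling (adjusted p = 0.152), within 0.0177 to 0.17 over 14 alternatives, in which its log2 fold change was -0.18 to -0.08. Leaving out control sample 3 (adjusted p = 0.111) or either of ZM samples 1 and 3 (adjusted p = 0.064 and 0.0724) ended that of Lats2, within 0.00113 to 0.111 and log2 fold changes of 0.08 to 0.18. For the Fat4 ligand Dchs1 (-0.18 ± 0.07; adjusted p = 0.0487) the call ended when any sample was left out (adjusted p = 0.0671 to 0.143), within 0.0345 to 0.326 and log2 fold changes of -0.20 to -0.06. Exons of Sav1 overlap Atl1 on the other strand over 25.4% of their bases, and its level is therefore uncertain.

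**Figure D3:**
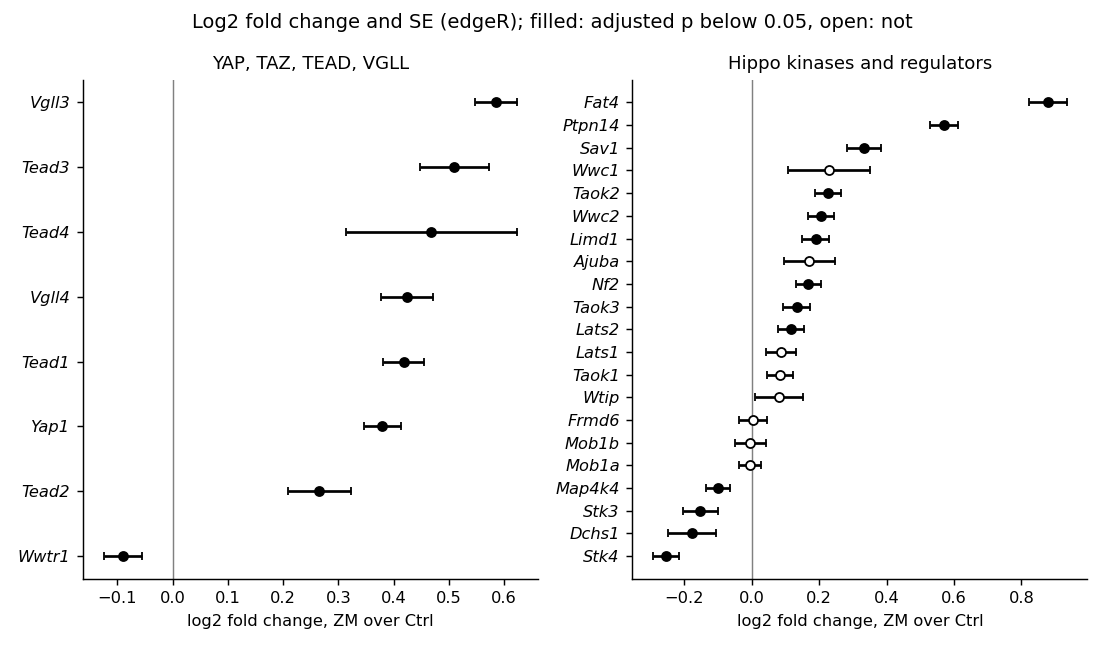
Log2 fold change of ZM over control (horizontal axes, points with SE, edgeR) for 8 YAP, TAZ, TEAD and VGLL genes (left) and 21 Hippo kinases and regulators (right), filled where the adjusted p was below 0.05. On the left 7 of 8 lie above 0, with Wwtr1 below, and on the right values run from -0.25 (Stk4) to 0.88 (Fat4).

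Other genes reported as YAP and TAZ targets in human cells did not share a direction. Of 18 tested 7 rose and 8 fell (83.3% called, beside 45.3% of all genes), and their median was -0.02. Igfbp3, a carrier of insulin-like growth factors, was at 15.5 ± 0.813 FPKM with ZM and 6.93 ± 0.423 FPKM in control (log2 fold change 1.10 ± 0.06; adjusted p = 1.46e-10). Crim1, a membrane protein that binds BMPs, rose by 0.78 ± 0.06, and Ptpn14 (0.57 ± 0.04) is on this list as well. Lats2 too is on both the Hippo list and this one. Tgfb2 (-0.22 ± 0.05) is on this list and on the TGF-beta list below, so the counts of these lists share genes. The ecto-5'-nucleotidase gene Nt5e had the largest fall, at 4.96 ± 0.413 FPKM with ZM and 21.5 ± 0.793 FPKM in control (4.51-fold lower; log2 fold change -2.17 ± 0.05; adjusted p = 2.91e-13). The guanine nucleotide exchange factor gene Dock5 (-1.05 ± 0.04) and Fjx1 (-0.57 ± 0.09) fell too.

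TGF-beta is a known inducer of Ccn2, and the genes of its list were mostly lower. Of 14 ligands and response genes 10 fell and 2 rose (85.7% called, beside 45.3% of all genes), with a median of -0.45. Scaling by library size alone gave 10 lower and 4 higher. Inhba, the activin A subunit, was at 73.7 ± 1.38 FPKM with ZM and 149 ± 4.16 FPKM in control (log2 fold change -1.08 ± 0.03; adjusted p = 2.33e-13). Periostin (Postn, -0.83 ± 0.04) and the transcription factor gene Bhlhe40 (-0.78 ± 0.04) fell as well. Among the ligands Tgfb1 fell (-0.67 ± 0.04) and Tgfb3 rose (0.68 ± 0.04; adjusted p = 6.21e-10).

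The inhibitory Smad7 rose (0.16 ± 0.05; adjusted p = 0.0296), but with DESeq2 it did not pass (adjusted p = 0.0678). Leaving out control sample 1 or control sample 2 ended the call too (adjusted p = 0.0817 and 0.0993), as did leaving out ZM sample 1 or ZM sample 2 (adjusted p = 0.14 and 0.056), within 0.00466 to 0.14 over 14 alternatives. For Tgfb3, 12.4% of the exon bases are shared with genes on the other strand. Macrophages also make Tgfb1, and their 7 markers were lower in the same libraries. Their part was not tested.

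**Figure D4:**
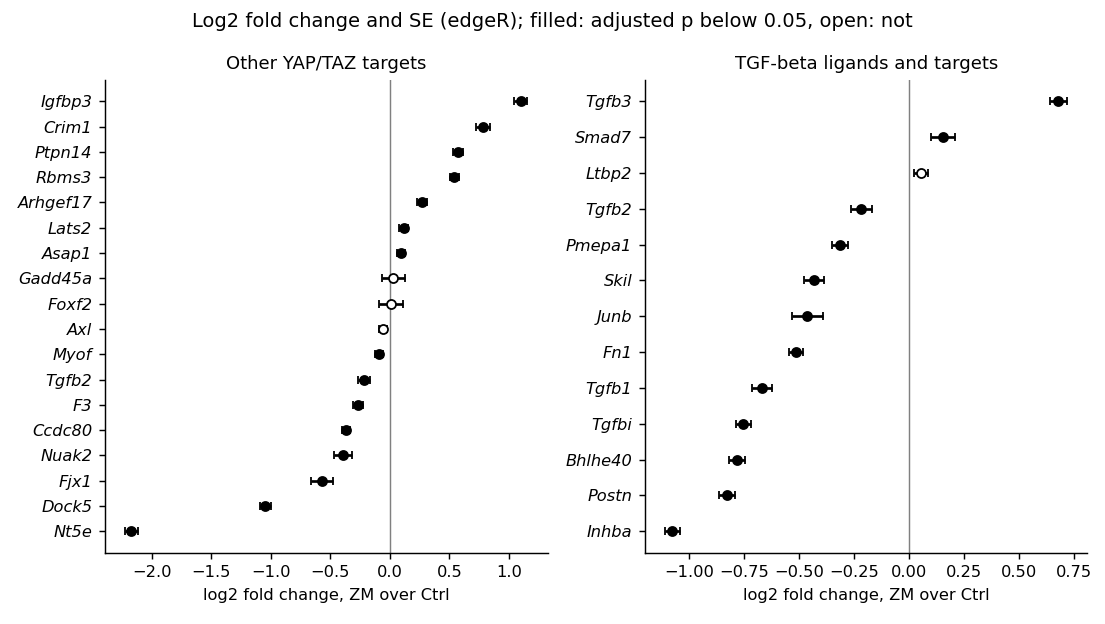
Log2 fold change of ZM over control (horizontal axes, points with SE, edgeR) for 18 other YAP and TAZ targets (left) and all but 1 of the 14 TGF-beta ligands and response genes (right), filled where the adjusted p was below 0.05. The targets spread from -2.17 (Nt5e) to 1.10 (Igfbp3), while 10 of the 14 TGF-beta genes are filled points below 0.

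Ccn1, Ccn2 and Ankrd1 are also read out by SRF and its actin-sensing partners, the MRTFs. Of 20 tested genes of that list 6 rose, 5 fell and 9 did not pass (55% called, beside 45.3% of all genes), with a median of -0.01, and scaling by library size alone gave 8 higher and 4 lower. Calponin 1 (Cnn1) fell to 12.2 ± 1.48 FPKM with ZM, against 18.2 ± 1.012 FPKM in control (log2 fold change -0.63 ± 0.08; adjusted p = 1.73e-04). Actb (-0.26 ± 0.04) and Actg1 (-0.23 ± 0.07; adjusted p = 0.0425) fell too, while the leiomodin gene Lmod1 (0.74 ± 0.08), the cofactor gene Mrtfa (0.30 ± 0.05) and the adaptor gene Tgfb1i1 (0.29 ± 0.04) rose. Srf itself (0.002 ± 0.04; adjusted p = 0.977) and the abundant Acta2 (-0.07 ± 0.03; adjusted p = 0.0958) did not pass. Leaving out control sample 2 (adjusted p = 0.0676) or either of ZM samples 1 and 2 (adjusted p = 0.109 and 0.119) ended the Actg1 call, within 2.24e-09 to 0.119 over 14 alternatives, and its transcript matches 4 other genes, so its level is uncertain.

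Receptors and binding partners of CCN proteins changed without a common direction. Of 14 tested 4 rose and 7 fell (78.6% called, beside 45.3% of all genes), with a median of -0.10. Fgfr2, a growth factor receptor that Ccn2 binds, was at 8.16 ± 0.162 FPKM with ZM and 3.68 ± 0.318 FPKM in control (log2 fold change 1.09 ± 0.05; adjusted p = 4.96e-11). The endocytic receptor Lrp1 rose slightly (0.23 ± 0.03), and the integrin subunit gene Itgb3 also rose (0.28 ± 0.08; adjusted p = 0.00946; without ZM sample 3 adjusted p = 0.0648, within 5.34e-04 to 0.0648 over 14 alternatives). Notch1, whose protein Ccn3 binds, fell to 1.59 ± 0.0836 FPKM, against 3.03 ± 0.177 FPKM in control (-0.98 ± 0.06). Itgam (-1.10 ± 0.05) and Itgb2 (-0.76 ± 0.04), which form the Ccn1 receptor of myeloid cells, fell in the libraries with less of the 7 macrophage markers, of which Itgam is one, and the part of those cells was not tested. In Itgam 68.7% of the exon bases are shared with Gm49368, and its level is therefore uncertain. Itgav, the partner of Itgb3, did not pass (0.01 ± 0.04; adjusted p = 0.829).

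Genes with the most similar course over the 6 samples were sought among 7243 named genes with at least 5 FPKM in the higher group, by the root mean square difference of centred log2 CPM. The course includes the difference between ZM and control, on which the 7 genes were picked. The genes found are thus mainly those with a similar log2 fold change, and shared regulation was not tested. For Ccn3 they were Abi3bp (0.0654), Nid2 (0.0868) and Prelp (0.0963), matrix protein genes with log2 fold changes of 2.43, 2.47 and 2.41. Ccn5 was nearest to Nfix (0.0212), Pcsk5 (0.0260) and Irx1 (0.0273), and Amotl2 to Mturn (0.0181), Slf2 (0.0232) and Rasa3 (0.0233). Nearest to Ccn1 were Snx7 (0.0112), Kdm5a (0.0153) and Hgsnat (0.0160), and to Ccn2 Ddx21 (0.0199), Endod1 (0.0234) and Pea15a (0.0235). Ccn4 lay nearest to Sh3kbp1 (0.0199), Ran (0.0216) and Cpe (0.0219), and Ankrd1 to Cdk17 (0.0344), Ap5b1 (0.0398) and Aifm2 (0.05004). No gene appears for more than 1 of the 7.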

How the data were processed

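Libraries of 3 ZM and 3 control samples were grouped by sample title. Per the submitters' processing notes, HISAT2 2.2.1, featureCounts 2.0.3 (Subread), DESeq2 and the build mm10 were used. Annotation, strand setting and handling of multiply mapped reads: not given in the sources used here. Unnormalized read counts, all whole numbers, were deposited by the authors. Beside them stand the authors' FPKM values, which divide each count by the library total and a fixed gene length, which equalled the joined exon length of GENCODE M21 for 98.3% of the 30765 gene IDs found there.

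Counts of 17533 genes of 31401 listed passed edgeR's expression filter and were tested with edgeR 4.0.16 (R 4.3.3), by its quasi-likelihood F test in robust mode after TMM scaling. Adjusted p-values are Benjamini-Hochberg's over all tested genes, with a threshold of 0.05. Each standard error is the size of the log2 fold change over the root of its F. Rows without a symbol (249) stayed in. Pairs of libraries within a group differed beyond sampling noise (5.30 to 8.98 chi-square units per degree of freedom), and each counts as a sample.

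The 7 genes and all lists were chosen with earlier results of these data known. Named list genes are up to 3 risen and 3 fallen per list, past the threshold, with groups that do not overlap and at least 1 FPKM in the higher group, plus Yap1, Wwtr1, Tead1 and Ccn6. Tead4, Lats1, Lats2, Tgfb1, Tgfb2, Srf, Acta2, Itgav, Amotl1, Ankrd2 and Ankrd23 fall outside this rule and were named after their values were seen. The TGF-beta list holds 1 gene that is not reported here by itself. Alternatives were DESeq2 1.42.0, other scalings and filters, limma 3.58.1 on log2(FPKM + 1) and log2(FPKM + 0.1) for genes with a mean of at least 1 FPKM, a replicate block and leaving out each sample. The pseudocount understates changes of low genes. Near-identical copies were sought with BLAST+ 2.17.0 (a minimum of 97% identity across 100 bases) among GENCODE M21 transcripts. Coding sequences were aligned with Biopython 1.88. Promoter sequences are RefSeq's on GRCm38.p6, the assembly also called mm10, and coordinates are 1-based.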

Additional observations from a re-analysis of the deposited data

How the results depend on the processing

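All 7 genes kept their direction and stayed past the threshold in each of the 14 alternatives, with log2 fold changes of 0.14 to 0.22 (Ccn1), -0.20 to -0.11 (Ccn2), 2.00 to 2.51 (Ccn3), -0.45 to -0.35 (Ccn4), 0.78 to 0.88 (Ccn5), -0.49 to -0.37 (Ankrd1) and 0.62 to 0.70 (Amotl2). The genes were picked on this contrast in the same libraries, so nothing is read from their staying past the threshold. The number of genes called among all tested was 6300 to 8100 over the same alternatives, with 12205 to 31401 genes tested, against 7939 of 17533. Of those called 50.4% were higher, but 62.2% with scaling by library size alone, which shifts the median of all genes by 0.06 on the log2 scale, and 62.8% on log2(FPKM + 1). The total called in each list stayed within 1.5 times, but the split by direction moved further in some, such as 1 in place of 4 lower Hippo genes and 4 in place of 2 higher TGF-beta genes with scaling by library size alone. Same-numbered ZM and control samples showed little joint deviation (correlations over genes of -0.0398, 0.0582 and -0.0146). With 3 samples per group this cannot settle whether the numbers pair the samples, and no label says whether they do. A replicate block called 7752 genes and the same 7 members, and it ended the calls of Wwtr1 (adjusted p = 0.0652), Dchs1 (adjusted p = 0.0661) and Actg1 (adjusted p = 0.0764).

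The difference in CCN shares, ZM minus control in percentage points, was -1.35 for Ccn1, -8.77 for Ccn2, 0.904 for Ccn3, -3.02 for Ccn4 and 12.2 for Ccn5. With CPM, which ignores gene length, these were 0.698, -7.30, 1.09, -5.57 and 11.1. The Ccn1 share so turns direction, since length weights the genes differently. With the Ccn2 length taken without the bases shared with Gm15270, an alternative chosen after seeing the data, the Ccn1 difference was -0.565 and that of Ccn4 -2.60. At these depths each of the 7 genes had at least 228 counts in every library.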
